A study of Homo sapiens with 6 samples.

Results

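The PAX genes encode transcription factors that bind DNA through the paired domain and direct the formation of organs in the embryo. Methylation of CpG sites was examined here around the starts of 8 of them, PAX1, PAX2, PAX3, PAX5, PAX6, PAX7, PAX8 and PAX9, in PC-3, an established line of human prostate carcinoma cells. The members were the CpGs within 3 kb of the hg19 start of each gene with at least 10 reads in 2 or more treated and 2 or more control libraries, 398 of 686608 such CpGs in all. Of these, 191 had at least 10 reads in all 6 libraries. Cells were given 160 µM S-adenosylmethionine (SAM) for 5 days in 3 libraries, and PBS (phosphate-buffered saline) for 5 days in the 3 control libraries. The comparison asked whether SAM changed CpG methylation. Nothing in the labels tells whether the replicates came from separate cultures. The p-values below therefore reflect the spread among these 6 libraries, and that spread may be technical.

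SAM is the methyl donor of the enzymes that place methyl groups on the C of CpG sites. Starts of developmental regulators such as the PAX genes often lie in dense clusters of CpGs that are largely unmethylated in normal tissues, and such clusters often gain methylation in cancer cells. The family falls into structural groups, namely PAX1 and PAX9, which lack a homeodomain, PAX2, PAX5 and PAX8, which keep part of one, PAX3 and PAX7, which have a whole homeodomain and an octapeptide, and PAX6, which has the homeodomain without the octapeptide. The remaining gene of the family, PAX4, was not analysed here.

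SAM replicate 2 and control replicate 2 stood apart in depth. Their reads over the members numbered 10993 and 12015, against 43560 to 70230 in the other 4 libraries. They covered 270 and 259 of the 398 members with at least 10 reads, against 392 to 397. Clustering of read coverage in 1 kb tiles put SAM replicates 1 and 2 with control replicates 1 and 3 (set A), and SAM replicate 3 with control replicate 2 (set B). These sets of like coverage come from the data and cross the treatments. The place of SAM replicate 2 is uncertain, since the lowest correlation within a set was 0.684 and the highest between sets 0.656. The PAX5 window had no CpG with 10 reads in all 6 libraries, so its level is given from the 4 libraries with the most reads. PAX9 had only 4 such CpGs, and its values are given both ways.

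The promoter sequences of 4 members, PAX2, PAX5, PAX6 and PAX7, are shown because these could be placed at the start of their window, so that their CpGs can be set beside the measured levels. They are RefSeq sequences of 300 bases, from 250 before to 50 after an annotated start, and are printed 5′ to 3′ on the strand of the gene. The promoter table held 7 of the 8 genes, without PAX1. Its build is not the hg19 of the methylation lists, so a promoter was placed on the lists only where all of its listed CpGs, at least 5, fell on CG in the sequence by their spacing. The starts in the table lie 129 bases (PAX2), 211 bases (PAX5), 0 bases (PAX6) and 160 bases (PAX7) from the hg19 starts used for the windows. Capitals mark the CpGs that were members.
PAX2 promoter (GRCh38.p14, chr10:100745332-100745631, plus strand): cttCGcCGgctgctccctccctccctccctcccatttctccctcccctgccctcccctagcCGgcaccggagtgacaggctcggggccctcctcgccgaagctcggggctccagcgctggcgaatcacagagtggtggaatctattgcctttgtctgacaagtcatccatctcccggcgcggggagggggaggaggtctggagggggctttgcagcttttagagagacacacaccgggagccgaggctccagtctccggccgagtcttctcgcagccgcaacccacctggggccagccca
PAX5 promoter (GRCh38.p14, chr9:37034219-37034518, minus strand): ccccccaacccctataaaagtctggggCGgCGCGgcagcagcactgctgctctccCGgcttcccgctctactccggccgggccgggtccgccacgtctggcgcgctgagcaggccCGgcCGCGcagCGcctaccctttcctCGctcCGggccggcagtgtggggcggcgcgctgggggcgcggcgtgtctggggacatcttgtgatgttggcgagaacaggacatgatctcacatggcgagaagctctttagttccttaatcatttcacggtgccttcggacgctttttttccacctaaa
PAX6 promoter (GRCh38.p14, chr11:31817912-31818211, minus strand): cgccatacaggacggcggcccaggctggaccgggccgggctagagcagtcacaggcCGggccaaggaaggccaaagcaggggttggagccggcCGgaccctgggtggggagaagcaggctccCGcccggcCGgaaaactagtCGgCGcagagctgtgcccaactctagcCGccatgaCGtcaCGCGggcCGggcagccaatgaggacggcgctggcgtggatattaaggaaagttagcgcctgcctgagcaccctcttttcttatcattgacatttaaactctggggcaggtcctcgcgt
PAX7 promoter (GRCh38.p14, chr1:18630596-18630895, plus strand): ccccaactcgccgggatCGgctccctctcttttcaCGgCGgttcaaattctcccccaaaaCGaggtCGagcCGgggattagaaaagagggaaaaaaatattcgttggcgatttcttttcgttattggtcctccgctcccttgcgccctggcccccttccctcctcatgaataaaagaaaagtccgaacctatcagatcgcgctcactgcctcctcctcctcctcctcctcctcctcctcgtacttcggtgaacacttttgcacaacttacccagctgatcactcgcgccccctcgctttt

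The capitals mark very different levels. The 3 marked CpGs of the PAX2 promoter had a mean of 2.61% methylated reads and the 10 of PAX5 a mean of 5.05%. Means of their single CpGs over libraries ran from 0% to 16.8%. The 11 marked CpGs of the PAX6 promoter had a mean of 93.4% (84.8 to 100%), and the 6 of PAX7 a mean of 77.2% (44.3 to 100%). The marked CpGs of PAX2 lie only at bases 4 to 62 and those of PAX7 at bases 18 to 72. Those of PAX5 lie at bases 28 to 147 and those of PAX6 at bases 57 to 190. Levels of all 4 promoters nearer their annotated starts are therefore not given by the capitals. The marked CpGs of PAX7 were read in 4 libraries, with at most 17 reads. The promoters did not differ in this way by CpG number. The PAX2, PAX5, PAX6 and PAX7 sequences held 19, 30, 24 and 21 CpGs, against a median of 14 over 35116 promoters, and GC contents of 66.7%, 65.0%, 64.7% and 54.3%, against a median of 58.7%. The motif CCGG was present in all 4, as in 63.1% of promoters. GGGCGG, searched on both strands, was present in PAX5 and PAX6 (45.0% of promoters), and TATAAA, also on both strands, in PAX5 alone (11.5% of promoters).

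Over the 191 CpGs read in all 6 libraries, the PAX windows were more methylated than the rest of the measured CpGs. The PAX windows stood at 59.8% ± 1.33 (SD, n = 6) and the other 336380 CpGs at 38.4% ± 0.0499 (SD, n = 6). The difference was 19.8 to 23.6 points in the 6 libraries, with a mean of 21.3 (exact two-sided sign-flip permutation p = 0.031, the smallest that 6 libraries allow). Each window compared alone also gave this p, whatever its direction. It shows only that the offset was stable over these libraries of one cell line. The rest is all other measured CpGs, not promoters alone. PAX2 went the other way, with a mean difference of -35.6 points, and the other 6 windows with enough CpGs lay 14.0 to 58.5 points above the rest. Counted over all 398 members, 227 (57.0%) had a mean over 80%, 86 (21.6%) lay from 20 to 80% and 85 (21.4%) were under 20%. In the rest of the series 31.5% were over 80%, 13.4% from 20 to 80% and 55.1% under 20%. PAX2 held 64 of the 85 members under 20% and PAX5 held 10.

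**Figure D1:**
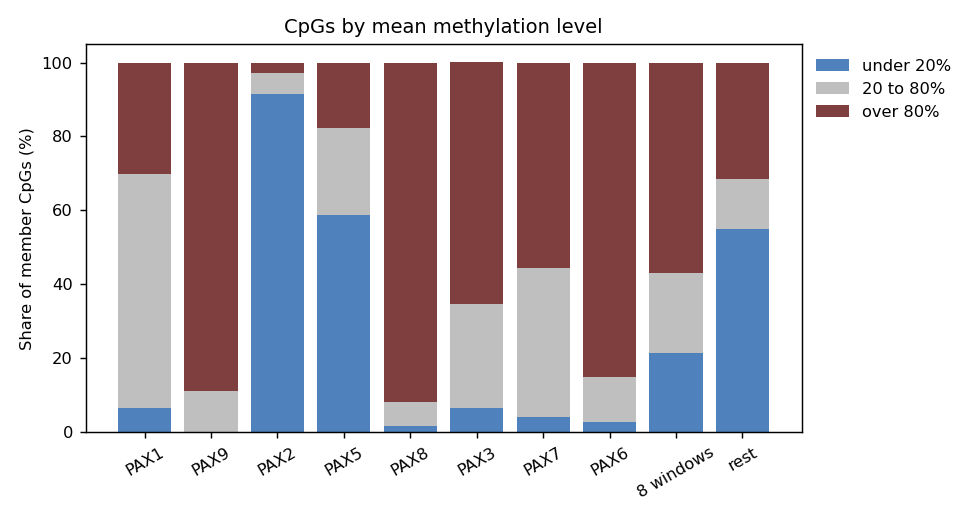
Share of member CpGs (y axis, percent) with a mean methylation under 20%, from 20 to 80% and over 80%, in each PAX window (x axis), in the 8 windows together and in the rest of the series. PAX2 and PAX5 are mostly under 20%, PAX8, PAX9 and PAX6 mostly over 80%, and PAX1 has 63.3% of its CpGs between these limits.

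Ordered by level over the CpGs read in all 6 libraries, the windows ran PAX8 (96.9%), PAX6 (86.4%), PAX7 (80.5%), PAX1 (64.4%), PAX9 (56.6%), PAX3 (52.4%) and PAX2 (2.85%). The order is a description. Sign-flip tests of neighbours were run, but their p-values are not given, since the same values set the order. PAX6 was above PAX7 in 5 of 6 libraries, by 5.9 points ± 3.96 (SD, n = 6), and PAX9 above PAX3 in 4 of 6, by 4.15 points ± 6.54 (SD, n = 6), so the latter pair lies within its spread. Each other window was above the next in 6 of 6 libraries. The places of PAX9 and PAX3 rest on 4 and 10 CpGs. That of PAX8 rests on CpGs from +1061 to +2945, away from its start. With all members, each at its mean over the libraries that cover it, PAX9 stood at 90.7% (27 CpGs) and PAX3 at 78.9% (46 CpGs). This puts PAX9 above PAX6 (89.5%, 73 CpGs), and PAX3 above PAX7 (76.3%, 74 CpGs) and PAX1 (67.2%, 30 CpGs). In the 4 deeper libraries PAX9, at 89.8%, stood above PAX7 (77.9%) and PAX1 (67.4%) and just below PAX6 (90.1%). PAX3, at 79.2% in these libraries, also stood above PAX7.

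**Figure D2:**
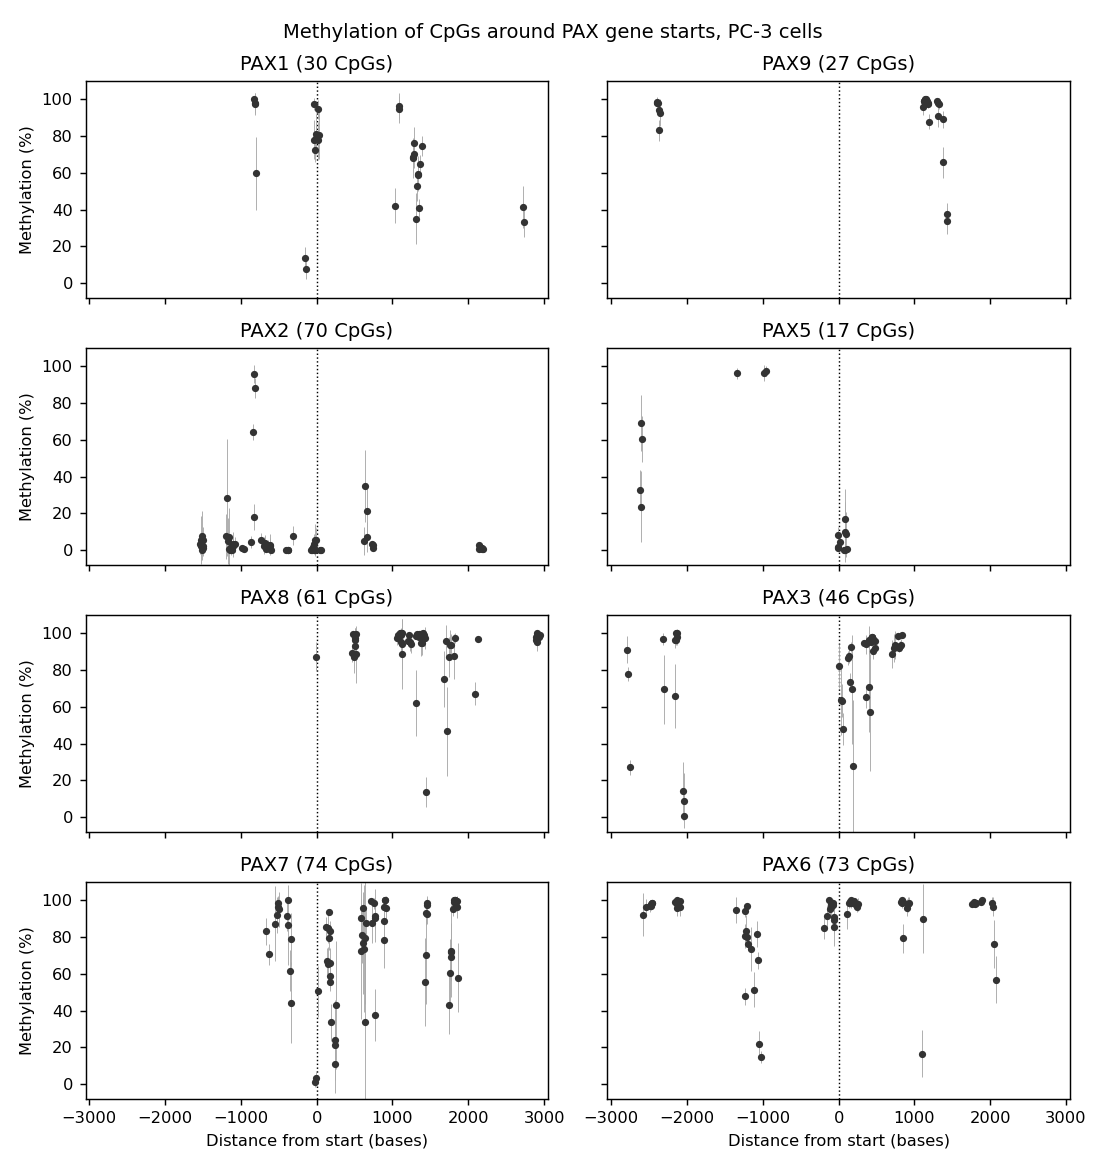
Methylation (y axis, percent) of each member CpG against its distance in bases from the gene start (x axis), upstream to the left except for PAX1, which is in the order of the chromosome. Points are means over the libraries that cover the CpG and bars are SD. PAX2 and PAX5 are low around the start, PAX6 is high there, and the CpGs of PAX7 run from 1.36% to 100%.

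PAX1, which patterns the vertebral column, and PAX9, needed for teeth and organs of the pharynx, form the first group. In the PAX1 window (chr20:21683297-21689297, hg19) most CpGs were partly methylated, 19 of 30 from 20 to 80%. A narrow low stretch lay beside the start. At 136 bases before it in chromosome order, the 3 SAM libraries stood at 4.11, 6.98 and 5.45% and the 3 controls at 5.62, 18.2 and 5.19%, from 11 to 462 reads. At the next covered CpG, 100 bases on, the mean was 97.4% ± 3.41 (SD, n = 4), and all 4 libraries that read both showed this step. The PAX1 level by library was 65.3, 63.9 and 65.4% with SAM and 64.2, 63.3 and 64.3% in controls, and the groups overlapped.

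PAX9 (chr14:37123773-37129773) had no member within 1 kb of its start, so its level at the start itself was not measured. Its 6 upstream CpGs, near -2.4 kb, had a mean of 94.2%. Of the 21 downstream CpGs, those from +1114 to +1373 were between 87.9% and 100%. Methylation then ran down over a short distance, from 89.1% ± 4.65 at +1373 to 65.7% ± 8.47 at +1376, 37.7% ± 5.78 at +1425 and 33.8% ± 7.09 at +1430 (SD, n = 6 each). These last 4 are the CpGs read in all 6 libraries. The PAX9 level was 56.6% over them and 89.8% ± 0.789 (SD, n = 4) over 21 CpGs in the 4 deeper libraries.

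The second group holds the most and the least methylated windows. PAX2, which acts in the kidney, ear and eye, stood at 2.85% ± 1.39 (SD, n = 6) over 52 CpGs (chr10:102502468-102508468). The 17 CpGs within 500 bases of its start had a mean of 1.55%, and the highest mean of a single CpG was 7.7%. By library the window level was 5.06, 0.957 and 2.14% with SAM and 3.6, 2.48 and 2.87% in controls. SAM held both the highest and the lowest value. A small cluster of methylated CpGs stood inside this unmethylated region. At -836, -828, -826 and -819 the means were 64.3% ± 4.17, 95.7% ± 4.83, 18.1% ± 7.1 and 88.3% ± 5.59 (SD, n = 5 each), and the next CpG, at -741, was at 5.41% ± 3.84 (SD, n = 6). The CpG at -826 lies 2 bases from the one at -828 and was the lower in all 5 libraries, at 22.4, 8.33 and 25.0% with SAM and 13.0 and 21.9% in control replicates 1 and 3. Control replicate 2 did not list these 4 CpGs.

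PAX5, which keeps B lymphocytes in their lineage, showed a start with little methylation and a methylated stretch upstream of it (chr9:37031476-37037476). No member lay more than 108 bases downstream. Its 10 CpGs within 500 bases of the start are those in capitals in the PAX5 sequence, and none had a mean over 16.8%. Single libraries went higher. At +83 SAM replicates 1 and 3 stood at 20.7 and 0.0% and control replicates 1, 2 and 3 at 36.8, 26.3 and 0.0%. At -963, -991 and -1339 the means were 97.6% ± 2.69, 96.4% ± 4.42 and 96.2% ± 2.87 (SD, n = 4 each), and 4 CpGs from -2598 to -2626 lay between 23.7% and 69.1%. Over the 16 CpGs read in the 4 deeper libraries the level was 34.7 and 32.4% in SAM replicates 1 and 3 and 33.0 and 31.2% in control replicates 1 and 3. The groups overlapped (exact permutation p = 0.667; 2 libraries against 2 cannot go below 0.333).

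PAX8, a regulator of the thyroid and kidney, was highly methylated at nearly all CpGs read (chr2:114033498-114039498), with 56 of 61 members over 80%. All but 1 of its members lay downstream of the start, so the upstream part was hardly measured. The 4 members within 500 bases of the start had a mean of 90.8%. The 34 CpGs read in all 6 libraries, which give the window level, lay from +1061 to +2945. The window level was 95.8, 97.6 and 97.5% with SAM and 96.3, 96.8 and 97.8% in controls, a spread of 0.805 points (SD, n = 6), and the groups overlapped. A single CpG at +1437, at 13.8% ± 8.1 (SD, n = 4), stood 10 bases from one at 97.3% ± 5.96 (SD, n = 5), from 13 to 20 reads at the former.

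PAX3 and PAX7, which act in neural crest and in muscle precursors, formed the third group. Over CpGs read in all 6 libraries their window levels had the widest spread between libraries. With each library's own CpGs the SD was 4.69 points for PAX3, below PAX5 at 14.2, and 1.97 for PAX7, above only PAX6 at 0.771. In the PAX3 window (chr2:223160715-223166715) the level over 10 CpGs was 66.1, 42.4 and 52.0% with SAM and 48.1, 52.2 and 53.7% in controls. SAM replicates 1 and 2 were the highest and the lowest of the 6. At +194 the values were 100, 0.0 and 16.1% with SAM and 15, 18.3 and 18.8% in controls, from 26, 169, 564, 546, 578 and 149 reads in that order. The 169 reads of SAM replicate 2 with none methylated allow up to 1.78%. At the neighbouring CpG at +179 they were 100, 100 and 64.2% with SAM and 20.3, 72.9 and 60.5% in controls. Over 46 CpGs in the 4 deeper libraries PAX3 stood at 79.2% ± 2.6 (SD, n = 4). The 3 CpGs from -2060 to -2038 were low, at 14.1% ± 15.7, 8.99% ± 14.8 and 0.846% ± 1.38 (SD, n = 6 each), next to one at 98.0% ± 4.4 (SD, n = 5) only 67 bases away.

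In the PAX7 window (chr1:18954500-18960500), methylated stretches stood on each side of low CpGs at the start. At -25 and -9 the means were 1.36% ± 3.05 and 3.1% ± 4.26 (SD, n = 5 each), and at +23 it was 50.6% ± 13.8 (SD, n = 5). From +126 to +169 the CpGs lay between 65.2% and 93.8%, and from +238 to +257 between 11% and 43.2%. Of the 74 members 41 were over 80% and 30 from 20 to 80%. The latter had a median SD between libraries of 15.6 points, against 12.1 points for such CpGs in the rest of the series. This spread was not particular to PAX7. It was larger in PAX3 (17.6), PAX2 (17.5) and PAX8 (16.6), and smaller in PAX5 (13.9), PAX1 (8.4), PAX6 (8.06) and PAX9 (7.09). These medians rest on 4 CpGs each in PAX2, PAX8 and PAX5, 3 in PAX9, 9 in PAX6, 13 in PAX3 and 19 in PAX1. The 8 windows together lay below the rest of the series. No test was made of these differences.

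PAX6, which acts in the eye, brain and pancreas, was methylated at and around its start (chr11:31836509-31842509). Its 20 CpGs within 500 bases of the start had a mean of 95.4%, and the lowest mean of a single CpG was 84.8%. Levels were lower about 1 kb upstream, where the 14 CpGs of the second kb before the start ran from 14.7% to 97.2%. The CpG at -1021 was at 13.7, 15 and 14.0% with SAM and 18.2, 9.09 and 18.1% in controls, and further upstream from -2092 to -2581 all 15 CpGs were between 92.3% and 100%. By library the PAX6 window stood at 85.6, 88.2 and 86.4% with SAM and 84.4, 86.7 and 87.1% in controls, and the groups overlapped.

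Between SAM and control, the PAX7 window was the one window of 7 whose groups did not overlap over CpGs read in all 6 libraries. Its level was 87.1, 81 and 80.9% with SAM and 74.1, 79.2 and 80.6% in controls, 5.06 points higher with SAM (standard error 2.84, exact permutation p = 0.1, the smallest that 3 libraries against 3 allow). The lowest SAM library, at 80.9%, lay just above the highest control, at 80.6%. Of 10536 windows of 6 kb with at least 10 such CpGs across the genome, 9.43% did not overlap, and 4.38% did so with SAM higher. Of the PAX windows with at least 10 such CpGs 1 of 6 did. The difference was 3.01 points without SAM replicate 1 and 3.14 without control replicate 1, 6.71 within set A and 1.76 within set B. With SAM replicate 2 placed in set B these were 9.75 and 1.82 points. It came to 0.0846 points when CpGs were weighted by their reads and 0.289 with each library's own CpGs. A minimum of 20 reads gave 2.42 points and the plus strand alone 2.78, and the groups overlapped in all 4 of these settings. The minus strand alone gave 7.81 points (18 CpGs) and 1 kb each side of the start 8.94 (22 CpGs), both without overlap.

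**Figure D3:**
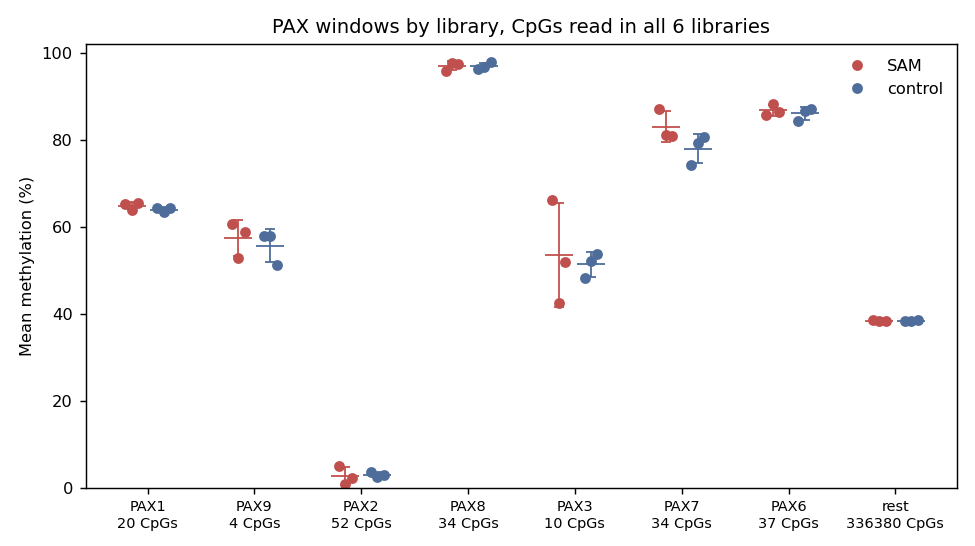
Mean methylation (y axis, percent) of each PAX window and of the rest of the series, over CpGs read in all 6 libraries. Points are single libraries, and bars give the mean and SD of the 3 SAM and the 3 control libraries. SAM and control overlap in each window except PAX7, where SAM is at 87.1, 81 and 80.9% and control at 74.1, 79.2 and 80.6%.

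In the other 6 windows the groups overlapped. SAM minus control was 0.937 points for PAX1 (exact permutation p = 0.3), 1.72 for PAX9 (exact permutation p = 0.5), -0.266 for PAX2 (exact permutation p = 0.8), 0.0194 for PAX8 (exact permutation p = 1.0), 2.17 for PAX3 (exact permutation p = 0.9) and 0.699 for PAX6 (exact permutation p = 0.6). Their standard errors were 0.568, 3.23, 1.26, 0.735, 7.08 and 1.13 points in the same order. Across the 6 kb windows of the genome the median size of the difference was 0.576 points and the 90th percentile 2.82. Without SAM replicate 1 the PAX3 difference turned to -4.13 points, and without SAM replicate 2 it was 7.71. The PAX9 difference was -0.461 points without control replicate 3, and -0.334 points over 21 CpGs in the 4 deeper libraries. The PAX2 difference was 0.616 points without SAM replicate 2, 0.0221 without SAM replicate 3 and 0.0436 without control replicate 1. For PAX8 it was -0.294 and -0.249 points without SAM replicates 2 and 3, and -0.318 and -0.0666 without control replicates 1 and 2. For PAX6 it was -0.0104 points without SAM replicate 2 and -0.141 without control replicate 1.

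**Figure D4:**
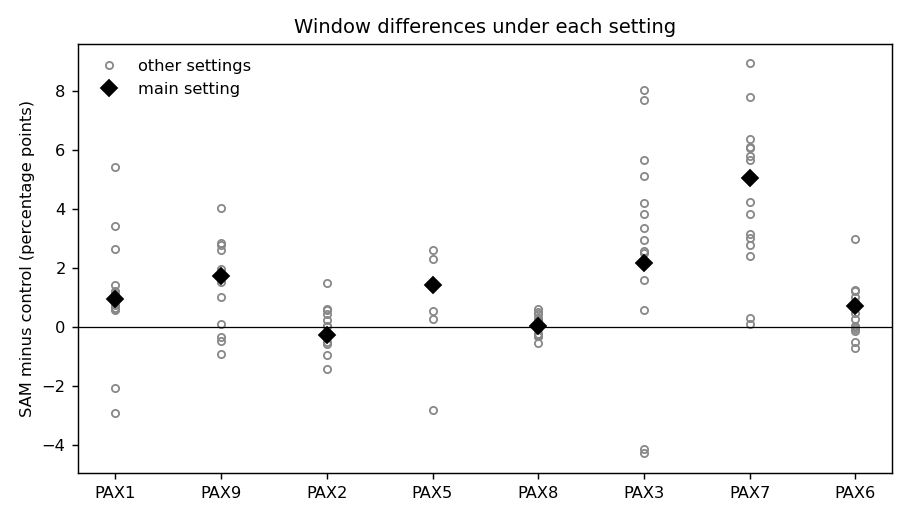
SAM minus control methylation (y axis, percentage points) of each PAX window (x axis) as reported (diamonds) and under each alternative setting (circles); for PAX5 the 4 deeper libraries are used. PAX7 stays above 0 under each setting plotted, from 0.0846 to 8.94 points, and the other windows have settings on both sides of 0.

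Among 1 kb segments, which were chosen after values were seen, the PAX7 difference was largest in the first kb after the start. There, 16 CpGs stood at 81.6, 79.4 and 71.3% with SAM and 56.6, 70.9 and 67.7% in controls, 12.4 points apart and without overlap (exact permutation p = 0.1). The lowest SAM library, at 71.3%, lay just above the highest control, at 70.9%, and control replicate 1 was the lowest. In the kb before the start the difference was -0.208 points, and in the second kb after it -2.05. Of 20 PAX segments of 1 kb with at least 3 CpGs read in all libraries, 3 did not overlap, all with SAM higher, where 9.09% of 1 kb tiles of the genome did not overlap and 5.21% had SAM higher. The other two were the first kb after the PAX2 start, at 2.6% with SAM and 2.07% in controls (0.537 points), and the third kb before the PAX6 start, at 98.8% and 97.5% (1.28 points). In control replicate 1, 25 reads gave 8.0% at both +623 and +634, where the other 5 libraries ran from 63.3% to 100%.

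Single CpGs gave 0 calls. The quasi-likelihood test of edgeR, with Benjamini-Hochberg adjustment over 490928 CpGs, called 0 (0%) of them at an adjusted p under 0.05 and 0 of the 365 PAX CpGs tested. The other 33 members had only methylated or only unmethylated reads in all libraries. At an unadjusted p under 0.05 edgeR gave 18 of the 365 (4.93%), against 5.78% of all CpGs tested, and limma gave 6 of 175 (3.43%), against 3.49% of all, and also 0 calls after adjustment. Of the 365, 188 were higher and 177 lower with SAM. For 1 kb tiles edgeR called 0 of 56687 (0%) and 0 of the 33 tiles that hold PAX members, with 1 of 33 at an unadjusted p under 0.05, against 5.35% of all tiles. A logistic model that leaves out the spread between libraries called 67 of the 365 CpGs, against 22.2% of all CpGs, and 12 of the 33 tiles, against 34.6% of all tiles. Tiles at the edge of a window also hold CpGs outside it.

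The CpG with the smallest p was in the PAX7 window at +238 (chr1:18957738). It was at 50.7, 41.9 and 34.7% with SAM, from 67, 43 and 147 reads, and at 0.0, 15.8 and 0.0% in controls, from 52, 19 and 15 reads. The 95% Wilson intervals were 39.1 to 62.3%, 28.4 to 56.7% and 27.5 to 42.7% with SAM and 5.52 to 37.6% in control replicate 2. In the 2 controls without a methylated read, a floor of 3 reads of the total is 5.77% and 20%. Intervals and floors cover counting error only. All 3 SAM libraries were above all 3 controls, by 37.2 points in the mean, but the CpG did not pass (edgeR adjusted p = 0.7791). Its neighbour at +241, 3 bases on, was at 11.8, 41.9 and 5.19% with SAM and 0.0, 7.41 and 0.0% in controls, so its groups overlapped, and so did those of +243 and +257.

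**Figure D5:**
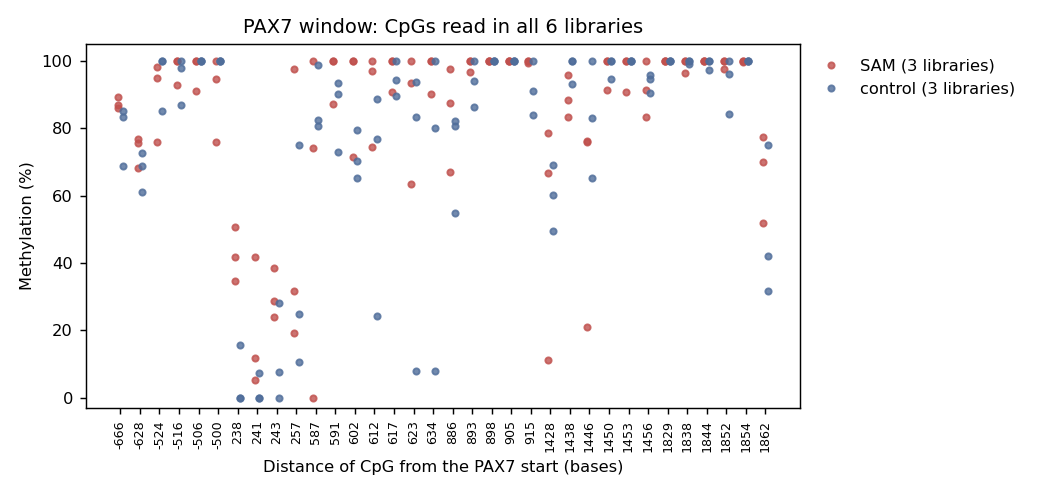
Methylation (y axis, percent) of the 34 CpGs of the PAX7 window read in all 6 libraries, in order along the gene (x axis, distance from the start in bases, not to scale). Each point is 1 library. At +238 SAM lies at 34.7 to 50.7% and control at 0.0 to 15.8%, and most CpGs further downstream are high in both groups.

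A difference with little spread between libraries was seen in the PAX8 window at +2085 (chr2:114034413). It was at 71.3, 72.5 and 74.1% with SAM, from 527, 40 and 58 reads, and at 62.6, 61.1 and 60.8% in controls, from 115, 18 and 633 reads. The groups did not overlap and differed by 11.1 points, but the CpG did not pass either (edgeR adjusted p = 0.85). In the PAX2 window the CpG at -26 was at 0.0% in all 3 SAM libraries, from 42, 27 and 192 reads, and at 18.5, 0.0 and 15.2% in controls, so the groups overlapped at 0 (edgeR adjusted p = 0.856). Reads of 42, 27 and 192 with none methylated allow up to 7.14%, 11.1% and 1.56%. The CpGs with the smallest p in the PAX6, PAX1, PAX9 and PAX3 windows also had overlapping groups, with adjusted p of 0.8614 each from edgeR.

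Over the 191 CpGs read in all 6 libraries, 7 (3.66%) had groups that did not overlap, 4 with SAM higher and 3 with SAM lower, where 4.9% of all such CpGs did, 2.7% with SAM higher and 2.19% with SAM lower. PAX2 held 3 of the 7, PAX7 2, PAX8 1 and PAX6 1. The tile with the smallest p lay in the PAX7 window, downstream of the start (chr1:18959001-18960000). It was at 88.0, 84.4 and 86.7% with SAM and 94.1, 90.8 and 94.9% in controls, 6.91 points lower with SAM, and did not pass (edgeR adjusted p = 0.9113).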

How the data were processed

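CpG methylation lists of 6 PC-3 libraries were used, 3 with SAM and 3 with PBS. For each cytosine the deposited lists hold the read count (coverage) and the percent of C and of T, per the file headers. CASAVA 1.8.2, FastQC 0.10.0, Bismark 0.7.4 and methylKit 0.5.3, and the build hg19, are named per the submitters' processing notes, without their roles. How libraries were made, and whether duplicates were removed, is not given in the sources used here. The lowest listed coverage was 10 reads, so positions below it are not represented and reads there were taken as 0. Libraries held 33056018 to 183523792 reads over listed positions. Copies made in amplification cannot be told from independent molecules, so intervals cover counting error only.

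Methylated reads were recovered from coverage and percent C, and both strands of a CpG were summed. A window level is the mean over CpGs with 10 reads in all 6 libraries, each CpG weighted equally, with at least 3 CpGs. Levels were compared between groups by an exact two-sided permutation test and with the rest of the series by an exact sign-flip test. All CpGs of the series, and all tiles of 1 kb holding 3 or more, were tested for a group term beside library terms with edgeR 4.0.16 under R 4.3.3, using counts of methylated and of unmethylated reads. The program limma 3.58.1 was an alternative. CpGs with no methylated or no unmethylated read were left out. The edgeR dispersion was set to 0, so that the quasi-likelihood term carries all spread. This was chosen on simulated data, after the form with dispersion estimated by edgeR had been run on these files and had given 0 calls. On the simulated data the form used made somewhat more false calls than its nominal rate when libraries were given extra spread.

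The members and lists were chosen with earlier results of these data known. The text names all 8 genes and, in each window, the CpG read in all libraries and the tile with the smallest edgeR p, for tiles only the smallest of all. CpGs given to describe a profile, the 1 kb segments, the sets of like coverage and the placing of promoters by CpG spacing were chosen after values were seen. Leaving out libraries was first done over the CpGs of the remaining libraries and then, with those values seen, over the fixed CpGs given here. No hg19 annotation was used, so exons and introns are not given, and other genes of the PAX pathways were not analysed here. Strand, for distances, is from the RefSeq promoter table (GRCh38.p14), and PAX1 is in chromosome order. Python 3.11.15, numpy 2.4.6, pandas 2.3.3, scipy 1.17.1 and matplotlib 3.10.9 were used.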

Additional observations from a re-analysis of the deposited data

How the results depend on the processing

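Sign changes were found in 28 of 119 values of the window differences under other settings. With the 4 deeper libraries the differences were -0.334 points for PAX9, 0.591 for PAX2, -0.302 for PAX8 and -0.0566 for PAX6. With each library's own CpGs they were -0.922 for PAX9, 1.48 for PAX2, -2.82 for PAX5 and -0.714 for PAX6. The plus strand alone gave -2.93 for PAX1 and 0.224 for PAX2, and the minus strand -0.56 for PAX8 and -4.29 for PAX3. Within 1 kb of the start they were -2.06 for PAX1 and -0.52 for PAX6, and a minimum of 20 reads gave -0.304 for PAX8. Averaged within the coverage sets with SAM replicate 2 moved to set B, they were 0.445 for PAX2 and -0.229 for PAX8. Leaving out each library in turn gave 0.637 to 1.42 points for PAX1, -0.461 to 4.04 for PAX9, -1.43 to 0.616 for PAX2, 0.266 to 2.6 for PAX5, -0.318 to 0.601 for PAX8, -4.13 to 7.71 for PAX3, 3.01 to 6.39 for PAX7 and -0.141 to 1.26 for PAX6. The cause was not tested. With all members the levels were 67.2% for PAX1, 90.7% for PAX9, 7.09% for PAX2, 92.9% for PAX8, 78.9% for PAX3, 76.3% for PAX7 and 89.5% for PAX6. These cover more CpGs and fewer libraries per CpG.

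A logistic model with no overdispersion called 67 of 365 PAX CpGs (37 higher, 30 lower) and 12 of 33 tiles (8 higher, 4 lower), where it called 22.2% of all CpGs and 34.6% of all tiles. It leaves out the spread between libraries. edgeR and limma called 0 PAX CpGs and 0 PAX tiles under each other setting run, and edgeR without SAM replicate 2 called 3 CpGs genome-wide, none in these windows. With edgeR's own dispersion 12 of 365 PAX CpGs (3.29%) had an unadjusted p under 0.05, against 4.17% of all CpGs. Whether equal replicate numbers mark pairs is not settled. Deviations from the group means had correlations of -0.00509, 0.00846 and -0.00791 between equal numbers. Unequal numbers were not compared, and counting error also enters these deviations. With the replicate block edgeR called 0 CpGs and 0 tiles, and the PAX7 difference was 5.06 points (exact sign-flip permutation p = 0.25, the smallest that 3 pairs allow). The alternatives of 20 reads, plus strand and 1 kb for PAX9, 1 kb for PAX8 and plus strand for PAX3 were not run, since fewer than 3 CpGs remained. The 4 deeper libraries, the moved SAM replicate 2 and edgeR's own dispersion were chosen after seeing the data.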
